A study of Mus musculus with 8 samples.

Results

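The ubiquitin genes described here are the 131 gene symbols on a mouse 2-colour DNA array that begin with the family names of the ubiquitin system: Uba, Ube, Usp, Uchl, Fbx, Trim, Rnf, Cul, Cops, Otu, Herc and Nedd. They were chosen by a rule on names, from array features annotated with a single symbol, and make up 131 of 5822 named genes on the array. Earlier results of these data were known when the rule was set. The arrays compared astrocytes grown from the cortex of newborn C57BL/6j mice, either wild type (WT) or with a null allele of connexin43 (Cx43 KO), the gap junction protein that couples astrocytes. Each genotype had 4 arrays, numbered 1 to 4. Every array set astrocyte RNA, in channel 2, against RNA pooled from 10 tissues of adult male and female C57BL/6j mice, in channel 1. Cx43 KO 3 was placed by a title that gives Cx43 but omits KO. No label ties the arrays to separate animals or cultures. The p-values below therefore weigh differences against the scatter of these 8 samples alone, and that scatter may be technical.

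Ubiquitin is a small protein that cells attach to other proteins, most often to send them to the proteasome, and also to change their location or their partners. An activating enzyme (E1) charges ubiquitin, a conjugating enzyme (E2) carries it, and a ligase (E3) picks the substrate, while deubiquitinases take ubiquitin off again. Ligases are by far the largest group and include RING proteins, their TRIM subfamily, HECT proteins, and cullin complexes that use F-box proteins as substrate receptors and are reset by the COP9 signalosome. Related modifiers such as NEDD8, SUMO and the interferon-induced ISG15 have their own enzymes of the same design.

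Values are log2 ratios, astrocyte RNA over pool RNA, after subtraction of the array's median, so that 0 is the middle feature of that array. The logarithm is taken to be to base 2, and neither the dyes nor the normalization is given in the sources used here. An exact 0 in the deposited values was read as no ratio. Of 9568 features, 3506 to 5514 had a ratio, depending on the array (36.6% to 57.6%). A gene was tested when at least 3 arrays of each genotype gave a ratio. That left 72 of the 131 ubiquitin genes (55.0%, against 49.8% of all named genes), 61 of them with all 8 values, and between 67 and 72 of the 72 were measured on each array. Of the 59 others, 38 had no ratio on any array and 21 had a ratio on some arrays only. Gja1, the connexin43 gene, has 0 features in the probe annotation used, so the genotype of the arrays was not checked by its target here.

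The culture label was checked with the marker lists. Of 14 astrocyte markers 5 were tested. Aldoc, an aldolase of astrocytes, was near the pool, at 0.29 ± 0.42 in WT and -0.06 ± 0.76 in Cx43 KO (SD, n = 4 each), and the means of Id4, Ttyh1 and Sox9 were above it in both genotypes, from 0.85 to 2.08. The highest was Fabp7. Fabp7, which binds fatty acids in astrocytes and their precursors, had a mean of 4.45 ± 0.18 in WT and 3.73 ± 0.57 in Cx43 KO (SD, n = 4 each). The defining markers Gfap, Slc1a3, Slc1a2, Aqp4 and Aldh1l1 were not tested. The lung surfactant gene Sftpc, which astrocytes do not make, lay at -5.95 ± 0.46 and -5.72 ± 0.29 (SD, n = 4 each), and this side of 0 is what sets the direction of the ratio. The mean of the microglia markers was above 0 on every array, and that of the fibroblast markers on all but Cx43 KO 1 and 2 (-0.96 and -0.54). Single markers differed: Col6a3 was above 0 on WT 1 only, and Col3a1 was below 0 on Cx43 KO 1 to 3. Cx43 KO 4 stood apart. On it the mean of 3 astrocyte markers was 0.46, against 1.75 to 2.20 on the other 7 arrays. The mean of 5 microglia and macrophage markers was 2.20 there, against 0.29 to 1.27, and that of 4 fibroblast, meningeal and mural markers 2.49, against -0.96 to 2.21. Cd68, Rac2, Itgam, Col1a1, Col3a1 and Fn1 were each at their highest on Cx43 KO 4. The other tested markers of these lists were not. Lgmn was at 0.68 there (up to 1.59 elsewhere), Tyrobp at 1.06 (up to 1.29) and Col6a3 at -0.49 (up to 0.91). Pdgfra was at 0.24 (up to 1.96) and Fmod at 2.95 (up to 4.22), and both are outside the mean for lack of a ratio on every array. Results that rest on this array are given with and without it. In such a culture, fewer cells of a type and less RNA per cell cannot be told apart.

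The first question was where the ubiquitin genes lie in astrocytes relative to the adult tissues. They spread on both sides of the middle feature. In WT 16 ubiquitin genes were above the pool and 19 below it at a limma adjusted p under 0.05, which makes 48.6% of the 72. Over all 3505 genes and features tested, 52.5% were called in WT (26.1% above and 26.4% below). In Cx43 KO 24 were above and 17 below, 56.9% of the 72, where 60.6% of all tested were called (30.9% above and 29.7% below). In both genotypes 15 were called above and 15 below. The median ubiquitin gene lay at -0.00026 in WT and 0.15 in Cx43 KO, and the median of everything tested at 0.0075 and 0.025. The split depends on the centring, since the array medians lay between 0.09 and 0.32 before it: without centring, 27 were above and 9 below in WT, and 35 above and 16 below in Cx43 KO. The pool is a single reference, so its own spread is left out of these tests. Without Cx43 KO 4, the Cx43 KO split was 22 above and 19 below.

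**Figure D1:**
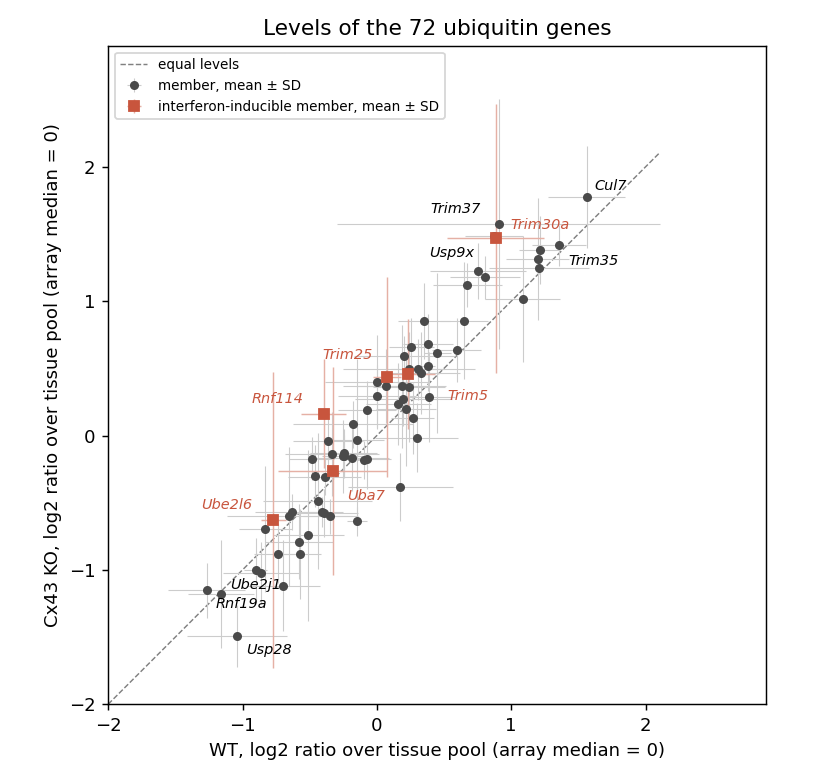
Mean log2 ratio over the tissue pool of each of the 72 tested ubiquitin genes in WT (x axis) and Cx43 KO (y axis), each array centred on its median, with bars of 1 SD over 3 or 4 arrays per genotype. Cul7 lies highest and Usp28 and Rnf19a lie lowest, and the interferon-inducible genes (squares) have the long vertical bars.

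Cul7, a cullin that works with the F-box protein Fbxw8, was the highest of all. Its ratio was 1.97, 1.40, 1.34 and 1.54 on WT 1 to 4, against 2.11, 1.36 and 1.85 on Cx43 KO 1, 3 and 4, so every measured array put it far above the pool. The adjusted p from limma was 4.6e-05 in WT and 4.2e-05 in Cx43 KO. The TRIM ligase Trim35 came next in WT, at 1.36 ± 0.20 in WT and 1.41 ± 0.15 in Cx43 KO (SD, n = 4 each). Usp22, the deubiquitinase of the SAGA complex that removes ubiquitin from histone H2B, lay at 1.21 ± 0.15 and 1.38 ± 0.25 (SD, n = 4 each), and at 0.78 in WT with exact zeros read as ratios. The WT mean of Usp22 includes a feature with a ratio on WT 1 only (1.89). Its feature with ratios on all 8 arrays had means of 1.08 in WT and 1.38 in Cx43 KO. Uba3, the catalytic subunit of the E1 for NEDD8, lay at 1.20 ± 0.23 and 1.31 ± 0.45 (SD, n = 4 each). The RING ligase Rnf181 lay at 1.21 ± 0.37 and 1.25 ± 0.05 (SD, n = 4 each). These 4 genes were above the pool in both genotypes. In WT their means differ by less than the SD of Uba3 or of Rnf181, so their order there cannot be told apart.

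Fbxw11, the F-box protein beta-TrCP2 that brings phosphorylated inhibitors of NF-kB and beta-catenin to a cullin ligase, led its class with 0.81 ± 0.26 in WT and 1.18 ± 0.16 in Cx43 KO (SD, n = 4 each). Ube2l3, an E2 that serves HECT and RING-between-RING ligases, led the conjugating enzymes with 0.59 ± 0.18 and 0.64 ± 0.24 (SD, n = 4 each). Both genes were called above the pool in each genotype.

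At the other end lay Rnf19a, a RING-between-RING ligase also called dorfin, with -0.99, -1.08, -1.62 and -1.37 on WT 1 to 4, against -1.16, -1.26, -1.32 and -0.86 on Cx43 KO 1 to 4. All 8 arrays were below 0 and the genotypes overlapped (limma adjusted p against the pool 4.1e-05 in WT and 6.0e-05 in Cx43 KO). Ube2j1, the membrane E2 of endoplasmic reticulum-associated degradation, lay at -1.16 ± 0.25 and -1.18 ± 0.40 (SD, n = 4 each). That value averages 3 features which differ: 2 lay between -1.21 and -2.67 on every array, and the third between -0.74 and 0.85. Usp28, a deubiquitinase that stabilises Myc, lay at -1.04 ± 0.37 in WT and -1.49 ± 0.23 in Cx43 KO (SD, n = 4 each). Trim29 lay at -0.86 ± 0.29 and -1.03 ± 0.23 (SD, n = 4 each). The F-box protein Fbxo44 lay at -0.57 ± 0.16 and -0.88 ± 0.33 (SD, n = 4 each), and its WT call was lost without centring (-0.36, limma adjusted p = 0.081). The HECT ligase Nedd4l, which takes sodium channels off the cell surface, lay at -0.35 ± 0.20 and -0.60 ± 0.13 (SD, n = 4 each), and its WT call rested on single arrays (limma adjusted p = 0.032, and 0.084 without WT 1, 0.125 without WT 3, 0.103 without WT 4 and 0.422 without centring).

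Members near the middle were not called. Cul2, the scaffold of the von Hippel-Lindau ligase, lay at -0.18 ± 0.45 in WT and 0.08 ± 0.18 in Cx43 KO (SD, n = 4 each), and its WT value was 0.03 without WT 3. Cops7b, the only tested subunit of the COP9 signalosome, lay at -0.25 ± 0.25 and -0.13 ± 0.18 (SD, n = 4 each), and at -0.032 in WT without centring. Usp6nl, which matches the name rule although it encodes a GTPase-activating protein and no deubiquitinase, lay at -0.0016 ± 0.38 and 0.40 ± 0.35 (SD, n = 4 each).

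The second question was which ubiquitin genes differ between Cx43 KO and WT astrocytes. No ubiquitin gene passed the test: limma gave 0 of 72 at an adjusted p under 0.05, where 0% of the 3505 tested passed, and the smallest adjusted p of a member was 0.655. More ubiquitin genes lay higher than lower in Cx43 KO, 50 against 22, so that 69.4% had a difference above 0 where 52.6% of all tested did. The median difference was 0.12, against 0.017 over everything tested, and single differences ran from -0.56 to 0.67. At an unadjusted p under 0.05 there were 8 members, 11.1% of the 72, where 7.5% of all tested passed. Of these 6 were higher (background 3.85%) and 2 lower (background 3.65%). The groups did not overlap in 4 members, 3 with Cx43 KO above WT and 1 below, where 5.22% of all tested did not overlap (2.43% above and 2.8% below), a share close to that of the members.

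The lean to higher values was small within each lot batch, the batch number in the labels, which equals the array number and pairs each WT array with a Cx43 KO array. In lot batches 1 to 4 the difference was above 0 in 39 of 72, 35 of 64, 39 of 69 and 43 of 71 ubiquitin genes measured on both arrays. That is 54.2%, 54.7%, 56.5% and 60.6%, where all tested genes gave 52.5%, 48.2%, 54.6% and 47.7%. The median difference of the members was 0.054, 0.065, 0.042 and 0.087, where that of all tested was 0.035, -0.018, 0.052 and -0.029. In lot batch 3 the members' median was thus below that of all tested. With lot batch entered as a replicate block in limma, 3 members had an unadjusted p under 0.05 (Usp9x, Rnf114 and Rnf20), and 0 had an adjusted one. Those 3 are 4.17% of the members, below the 5.56% of all tested. Without Cx43 KO 4, 45 members were higher and 27 lower (62.5%, against 53.7% of all tested), and the median difference was 0.06 (0.03 over all tested). Without lot batch 4, 40 were higher and 32 lower (55.6%, against 54% of all tested), a share close to that of all tested. The median there was 0.07 (0.04 over all tested). It was also 0.07 without WT 2 (0.02 over all tested).

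The 8 members were not fixed, and neither was their share relative to all tested. The count at an unadjusted p under 0.05 was 3 without WT 1 (4.17%, against 5.47% of all tested), 5 without WT 2 (6.17% against 5.26%) and 4 without WT 3 (4.94% against 4.42%). Without WT 4 it was 10 (13.9% against 9.44%). It was 7 without Cx43 KO 1 (9.72% against 6.52%), 5 without Cx43 KO 2 (6.94% against 6.85%) and 2 without Cx43 KO 3 (2.78% against 5.39%). Without Cx43 KO 4 it was 7 (9.72% against 12%), and 4 of these were among the 8. Without lot batches 1 to 3 it was 4 (5.56% against 5.35%), 4 (4.82% against 4.8%) and 1, Usp9x (1.23% against 3.36%). Without lot batch 4 it was 10 (13.9% against 15.3%). The members' share was thus below that of all tested in several settings and above it in others. Groups of fewer arrays overlap less often by construction. The members that did not overlap were 8 without WT 1 (11.1%, against 9.29% of all tested), 7 without WT 2 (8.64% against 8.66%) and 12 without WT 4 (16.7% against 13.2%). They were 7 without Cx43 KO 1 (9.72% against 9.04%) and 12 without Cx43 KO 4 (16.7% against 13.3%). Without lot batches 1 to 4 they were 14 (19.4% against 14.7%), 10 (12% against 13.9%), 8 (9.88% against 12.3%) and 23 (31.9% against 26.4%).

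**Figure D2:**
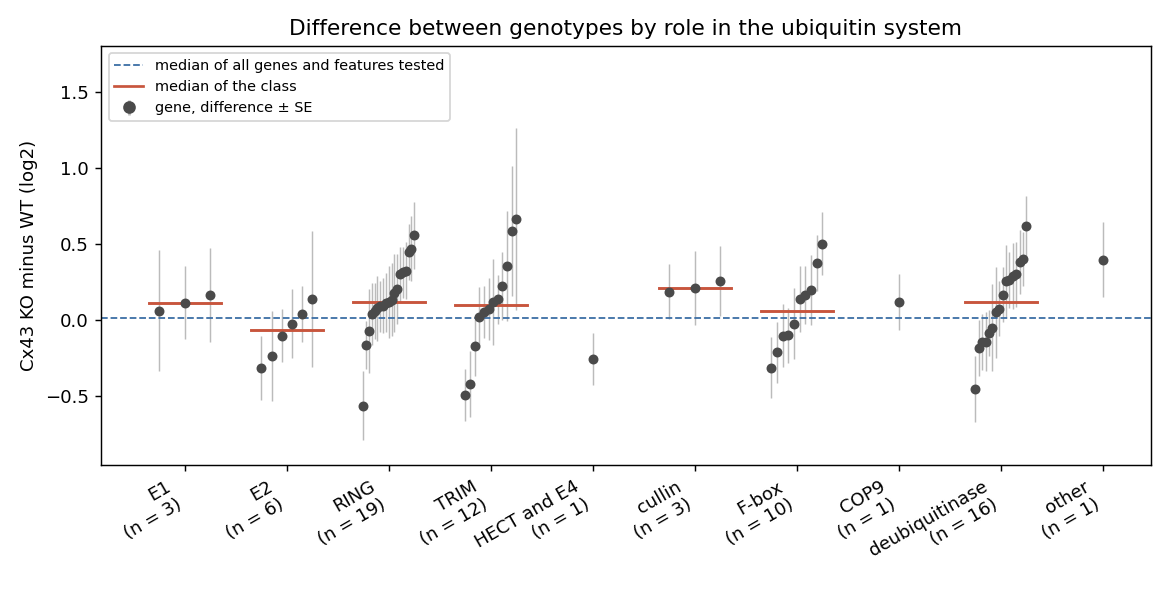
Cx43 KO minus WT difference (log2) of each tested ubiquitin gene with its standard error from limma, grouped by role in the pathway, with the median of each class and, as a dashed line, the median of 0.017 over all genes and features tested. Of the larger classes RING ligases have 16 of 19 genes above 0 and E2 enzymes 2 of 6 (15 of 19 and 3 of 6 with quantile or scale normalization, 16 of 19 and 1 of 6 without Cx43 KO 4). Of all genes and features tested, 52.6% lie above 0.

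Of the activating enzymes all 3 on the array were tested, and their differences were smaller than their errors. Uba3 differed by 0.12 (SE 0.24), and by -0.060 with quantile and -0.064 with scale normalization. Uba6, an E1 that activates ubiquitin and the ubiquitin-like FAT10, differed by 0.17 (SE 0.31). Uba7, the E1 of ISG15, differed by 0.06 (SE 0.40). None of the 3 kept its sign throughout: Uba3 was at -0.08 without Cx43 KO 1, and Uba6 and Uba7 were at -0.06 and -0.32 without Cx43 KO 4. Uba6 averages features that were measured on different arrays, with differences of 0.54 and 0.11. Cx43 KO 1 had a ratio only for the lower feature, and WT 3 and Cx43 KO 2 only for the higher one. With the feature of most ratios Uba6 differed by 0.54.

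Of 9 conjugating enzymes 6 were tested, 2 higher and 4 lower, with a median difference of -0.06. With quantile or scale normalization the split was 3 and 3, and without Cx43 KO 4 it was 1 and 5, with a median of -0.23. Ube2e3 was the E2 with the smallest p. Its ratio was 0.56, 0.30, 0.46 and -0.14 on WT 1 to 4, against 0.09, 0.29, -0.28 and -0.16 on Cx43 KO 1 to 4. WT 4 lay among the Cx43 KO arrays, the other WT arrays lay above them, and the difference was -0.31 (SE 0.21, limma adjusted p = 0.776), or -0.17 without lot batch 3. Ube2l3 and Ube2j1 differed by 0.04 (SE 0.18) and -0.02 (SE 0.23).

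RING ligases were the largest class, with 33 on the array and 19 tested. Of these 16 were higher and 3 lower (15 and 4 with quantile or scale normalization), with a median difference of 0.12. The 16 are 84.2% of the class, where 52.6% of all tested were higher. Without Cx43 KO 4 the split stayed 16 and 3 and the median was 0.07, and without lot batch 4 they were 13 and 6, and 0.09. RING ligases also held 4 of the 8 members with an unadjusted p under 0.05, namely Rnf114, Rnf130 and Rnf20, higher, and Rnf138, lower. That is 21.1% of the 19, where 7.5% of all tested passed. With the replicate block only Rnf114 and Rnf20 of these passed, and without Cx43 KO 4 only Rnf130 and Rnf20. Rnf20 is the ligase that places ubiquitin on histone H2B, the mark that Usp22 removes. Its ratio was 1.25, 0.75, 0.42 and 0.59 on WT 1 to 4, against 1.42, 1.26, 1.27 and 0.93 on Cx43 KO 1 to 4. Each Cx43 KO array was higher than the WT array of the same lot batch, by 0.17, 0.51, 0.85 and 0.34, although WT 1 reached into the Cx43 KO range. The difference was 0.47 (SE 0.21, limma adjusted p = 0.666), and 0.31 with scale normalization.

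Rnf130, a membrane ligase related to the fly protein Goliath, had a ratio of 0.42, 0.58, 0.67 and 1.03 on WT 1 to 4, against 1.03, 1.31, 1.19 and 0.95 on Cx43 KO 1 to 4. WT 4 lay within the Cx43 KO range and the other WT arrays below it. The difference was 0.45 (SE 0.18, limma adjusted p = 0.655), and it was 0.61, 0.73, 0.52 and -0.08 within lot batches 1 to 4. Rnf220 differed by 0.31 (SE 0.17, limma adjusted p = 0.696), from a mean of -0.49 ± 0.16 in WT to -0.17 ± 0.16 in Cx43 KO (SD, n = 4 each).

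Rnf138, a ligase that acts in the repair of DNA breaks, had a ratio of -0.13, 0.02, 0.05 and 0.75 on WT 1 to 4, against -0.29, -0.10, -0.47 and -0.69 on Cx43 KO 1 to 4. WT 4 stood well above the other WT arrays, and Cx43 KO 2 overlapped WT 1. The difference was -0.56 (SE 0.23, limma adjusted p = 0.655), and it was -0.37 without WT 4 and -0.27 without lot batch 4.

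Rnf114, a RING ligase induced by interferon, did not overlap between the groups. Its ratio was -0.45, -0.49, -0.50 and -0.15 on WT 1 to 4, against -0.11, -0.14, 0.16 and 0.74 on Cx43 KO 1 to 4. The gap between WT 4 and the lowest Cx43 KO array was narrow, and the highest value was that of Cx43 KO 4. The difference was 0.56 (SE 0.22, limma adjusted p = 0.655), and 0.37 without Cx43 KO 4.

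TRIM ligases numbered 21 on the array and 12 tested, 9 higher and 3 lower, with a median difference of 0.10. The split was 8 and 4 with quantile or scale normalization, 7 and 5 without Cx43 KO 4, with a median of 0.05, and 5 and 7 without lot batch 4, with a median of -0.02. Trim11 was the tested member in which every Cx43 KO array lay below every WT array that measured it. Its ratio was -0.13, -0.08 and -0.23 on WT 1, 3 and 4 and -0.75, -0.71, -0.59 and -0.51 on Cx43 KO 1 to 4. The genotypes did not overlap, and the spread within each was small (SD 0.07 and 0.11). The difference was -0.49 (SE 0.17, limma adjusted p = 0.655). Trim24, a bromodomain co-regulator of nuclear receptors that also ubiquitinates p53, differed by -0.42 (SE 0.22, limma adjusted p = 0.696), and by -0.26 without Cx43 KO 4. It was lower on the Cx43 KO array in all 4 lot batches.

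The widest spread of all members was that of Trim37, a ligase of peroxisome and centrosome proteins, named after its values were seen. Its ratio was 0.96, -0.31, 0.45 and 2.53 on WT 1 to 4, against 2.15, 2.33, 1.54 and 0.27 on Cx43 KO 1 to 4. High and low arrays occurred in both genotypes, and its difference of 0.67, the largest of any member, had an SE of 0.60 (limma adjusted p = 0.821). That difference was 1.21 without WT 4, 1.10 without Cx43 KO 4, 1.23 with array weights, 0.26 without WT 2 and 0.41 without Cx43 KO 2. It was 0.0074 without lot batch 2 and 1.64 without lot batch 4. The median SD within a genotype was 0.27 over the members, against 0.31 over everything tested.

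Trim8, also named after its values were seen, shows that features of a gene can disagree. A feature of Trim8 lay between -0.17 and -0.08 in WT and between 0.32 and 0.79 in Cx43 KO, while another lay between 0.74 and 0.98 in WT and between 0.35 and 0.89 in Cx43 KO. Their differences were 0.60 and -0.32, and the mean used here differed by 0.14 (SE 0.16). Of the 72 tested members, 12 had ratios from more than 1 feature.

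HECT and E4 ligases had 3 members on the array and 1 tested, Nedd4l. It differed by -0.25 (SE 0.17, limma adjusted p = 0.776), and by -0.15 without WT 2. The 3 tested cullins of 5 on the array were all higher, with a median difference of 0.21 (2 higher and 1 lower with quantile or scale normalization). Cul2 differed by 0.26 (SE 0.23), Cul7 by 0.21 (SE 0.24), and Cul5, the cullin of SOCS-box ligases, by 0.19 (SE 0.18).

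F-box proteins numbered 23 on the array and 10 tested, 5 higher and 5 lower, with a median difference of 0.06 (0.03 without Cx43 KO 4). Fbxw8, named after its values were seen, counts as lower (-0.10). Its features differed by 0.60 and 0.05, the first of them with ratios on 4 arrays only. Fbxl6 was measured on 7 arrays, at 0.28, 0.11, 0.51 and 0.51 on WT 1 to 4, against 0.56, 1.13 and 0.87 on Cx43 KO 1, 3 and 4. The groups did not overlap, although Cx43 KO 1 lay just above WT 3 and 4. The difference was 0.50 (SE 0.21, limma adjusted p = 0.655), and 0.29 with exact zeros read as ratios. Fbxw11 differed by 0.37 (SE 0.18, limma adjusted p = 0.687) and by 0.24 with quantile normalization, 0.23 with scale normalization and 0.22 without lot batch 1. On the lower side, Fbxo44 differed by -0.31 (SE 0.20, limma adjusted p = 0.760) by -0.19 with quantile normalization and by -0.14 without Cx43 KO 4. Fbxl12 differed by -0.21 (SE 0.20, limma adjusted p = 0.826), by -0.11 with quantile normalization, with its values split 2 to 2 between higher and lower over the lot batches. The 1 tested COP9 subunit, Cops7b, differed by 0.12 (SE 0.18).

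Deubiquitinases numbered 28 on the array and 16 tested, 10 higher and 6 lower, with a median difference of 0.12. Usp9x, a large deubiquitinase encoded on the X chromosome, had the smallest p of all members. Its ratio was 0.65, 1.08 and 0.88 on WT 1, 2 and 4 and 1.52, 1.46 and 1.48 on Cx43 KO 1, 3 and 4. The 3 Cx43 KO values lay close together (SD 0.03) and above every WT value. The difference was 0.62 (SE 0.20, limma adjusted p = 0.655), and both lot batches that measured it on both arrays gave a positive difference, 0.87 and 0.60.

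Usp14, which sits on the proteasome and trims ubiquitin chains from its substrates, had a ratio of 0.06, 0.46, 0.25 and 0.25 on WT 1 to 4, against 0.35, 0.82, 0.66 and 0.81 on Cx43 KO 1 to 4. Cx43 KO was higher in all 4 lot batches, by 0.29, 0.35, 0.41 and 0.56, although Cx43 KO 1 lay below WT 2. The difference was 0.40 (SE 0.18, limma adjusted p = 0.658). Usp28 differed by -0.45 (SE 0.22, limma adjusted p = 0.685), by -0.26 with scale normalization, and was lower in all 4 lot batches. Uchl1, an abundant deubiquitinase of neurons, differed by -0.05 (SE 0.28), with its sign turned by quantile (0.044) and scale normalization (0.051) and without Cx43 KO 4 (0.15). The TRIM protein Trim46, which organises microtubules at the start of axons, differed by 0.07 (SE 0.20). These 2 were the tested genes of the neuron list.

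**Figure D3:**
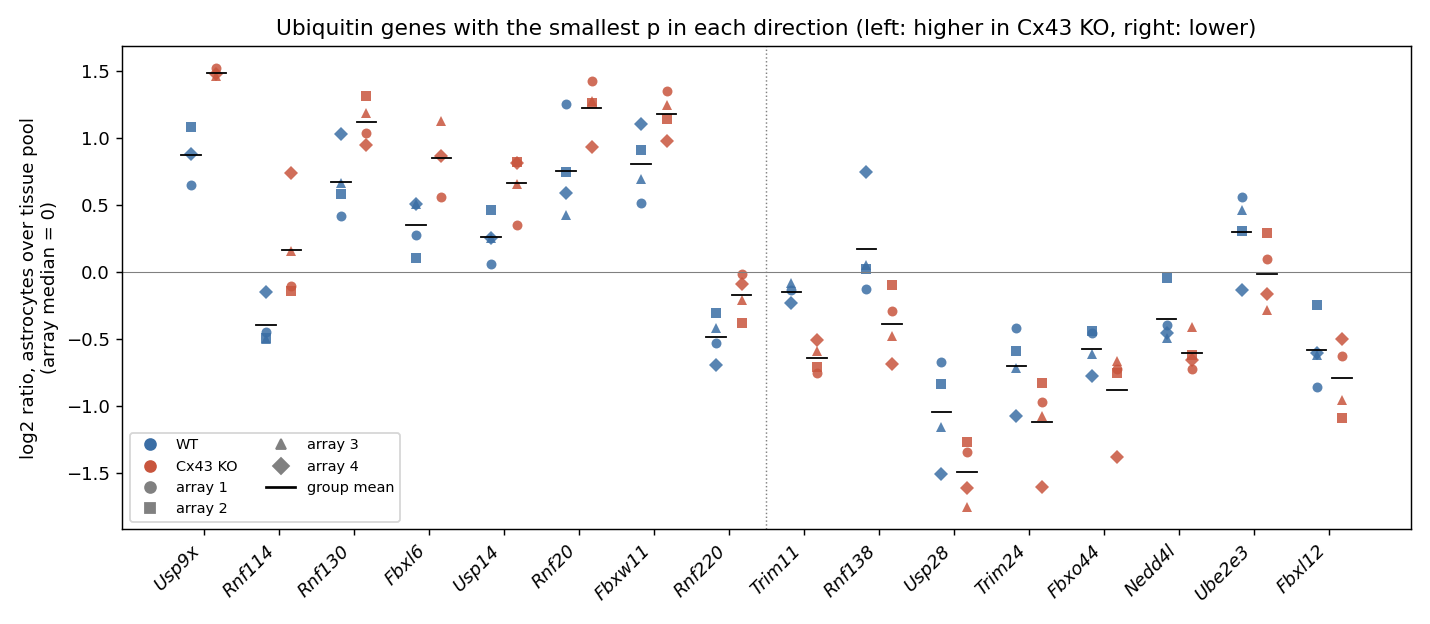
Log2 ratio over the tissue pool on each array (array median at 0) for the 8 ubiquitin genes with the smallest p in each direction, with WT in blue, Cx43 KO in red, a marker shape per array number and a line at the group mean. The groups do not overlap in Usp9x, Rnf114, Fbxl6 and Trim11, and each of the other 12 genes has at least 1 array inside the range of the other genotype.

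The members that interferon induces were highest on a single array, Cx43 KO 4. Type I interferon raises the enzymes of ISG15 (the E1 Uba7, the E2 Ube2l6 and the ISG15 protease Usp18) and several TRIM ligases of innate immunity. Of the 8 such members on the array 6 were tested, and Trim12a and Usp18 had no ratio on any array. All 6 had their highest value on Cx43 KO 4, where 20.3% of all genes measured there did, and 13 of the 65 other members (20.0%). The interferon list was drawn up with earlier results of these data known, so the shares in this paragraph do not test an excess. The value on Cx43 KO 4 exceeded every other array by more than 0.5 in 5 of the 6, against 5.4% of all genes and 1 of the other members, Uba6. Uba7 is among the 5 only through the mean of its 2 features. Its feature with more ratios was at 0.16 on Cx43 KO 4 and at 0.13 on WT 3. With Cx43 KO 4 included, all 6 differed upward between genotypes with a median of 0.29, and 0 passed the test.

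Trim30a, which restrains Toll-like receptor signalling, was at 0.76, 0.98, 1.33 and 0.47 on WT 1 to 4, against 0.82, 1.10, 1.00 and 2.96 on Cx43 KO 1 to 4. Ube2l6 was at -0.78, -0.73, -0.67 and -0.90 on WT 1 to 4, against -1.35, -1.20, -0.98 and 1.01 on Cx43 KO 1 to 4. In Ube2l6 the first 3 Cx43 KO arrays lay below every WT array and the last above every WT array. Trim25, the ligase that activates the RNA sensor RIG-I, was at 0.19, -0.02 and 0.07 on WT 1, 2 and 4 and -0.02, 0.09, 0.12 and 1.54 on Cx43 KO 1 to 4. Uba7 was at -0.63, 0.13 and -0.49 on WT 1, 3 and 4 and -0.61, -0.84, -0.49 and 0.87 on Cx43 KO 1 to 4. In Trim25 and Uba7 the other arrays of both genotypes overlapped. Trim5, whose primate relative recognises retroviral capsids, was at 0.27, 0.38, 0.34 and -0.06 on WT 1 to 4, against 0.59, 0.18, 0.08 and 0.97 on Cx43 KO 1 to 4.

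The difference between genotypes was 0.59 (SE 0.43) for Trim30a with Cx43 KO 4 and 0.09 without it, and 0.33 with quantile normalization. It was 0.36 (SE 0.36) and -0.01 for Trim25, and 0.22 (SE 0.22) and 0.05 for Trim5. Both enzymes of ISG15 turned their sign. Ube2l6 went from 0.14 (SE 0.44) to -0.40 (limma adjusted p = 0.384), and Uba7 from 0.06 (SE 0.40) to -0.32 (limma adjusted p = 0.631). Uba7 averages 2 features, 1 of which had a ratio on 4 arrays only and was at 1.59 on Cx43 KO 4, while the other was at 0.16 there. Over the 4 interferon members with 8 values, the mean was 1.42 on Cx43 KO 4 and -0.16 to 0.12 on the other 7 arrays. On the same array the microglia and fibroblast marker means were the highest and the astrocyte marker mean the lowest of all 8. Their part in the interferon values was not tested.

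**Figure D4:**
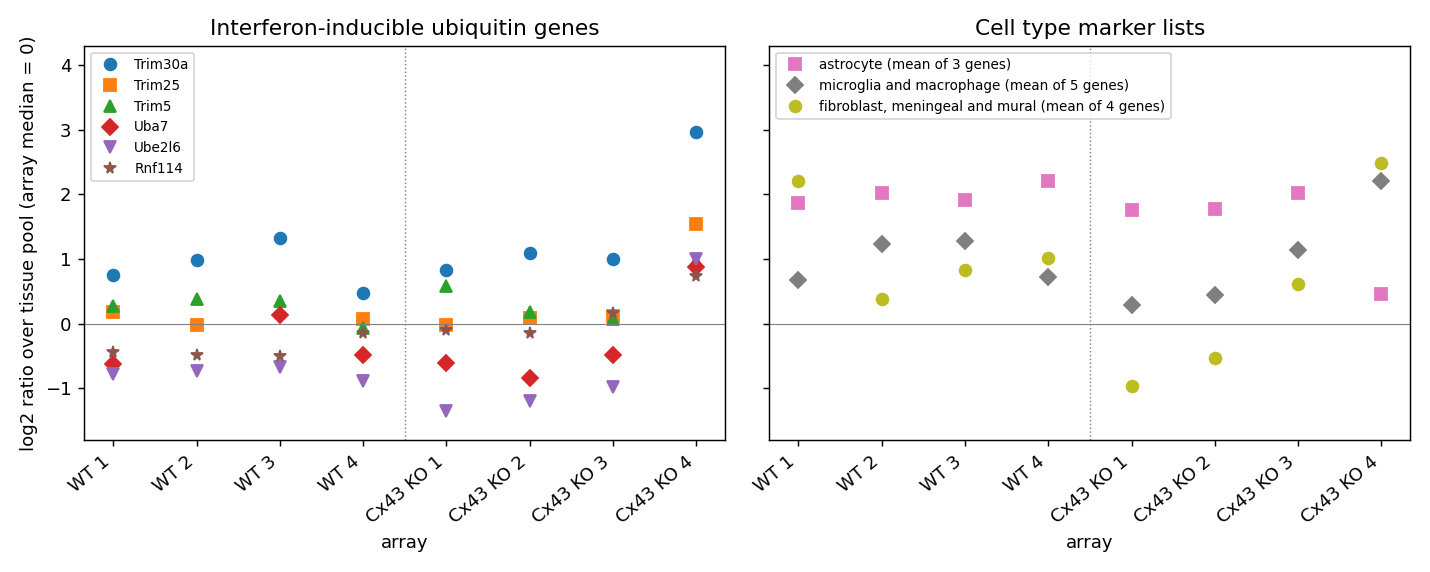
Log2 ratio over the tissue pool on each of the 8 arrays (array median at 0) for the 6 tested interferon-inducible ubiquitin genes (left) and for the mean of 3 marker lists (right), with a dotted line between WT and Cx43 KO. On Cx43 KO 4 all 6 genes, the microglia mean (2.20) and the fibroblast mean (2.49) are at their highest and the astrocyte mean (0.46) is at its lowest.

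The upstream sequences of 5 of these genes are shown because they were high together on that array. Rnf114, the other member of the list that was tested, has no match to either pattern in its 2 windows and is not printed, nor is a second annotated start of Trim30a, whose 100 bases hold no match. Each is the 100 bases before the annotated start, 5′ to 3′ on the strand of the gene, from RefSeq on GRCm38.p6. Capitals mark matches, on either strand, to GAAA, any 2 bases and GAAA, the core of the interferon-stimulated response element, or to the shorter GAAACT, which was added after the windows had been read. The coordinates are chr7:104465194-104465293 (minus strand) for Trim30a, chr7:104288107-104288206 (minus) for Trim5, chr9:107975467-107975566 (plus) for Uba7, chr11:88999303-88999402 (plus) for Trim25 and chr2:84798728-84798827 (plus) for Ube2l6.
Trim30a: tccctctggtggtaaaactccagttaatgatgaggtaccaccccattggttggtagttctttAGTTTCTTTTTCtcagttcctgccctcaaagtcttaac
Trim5: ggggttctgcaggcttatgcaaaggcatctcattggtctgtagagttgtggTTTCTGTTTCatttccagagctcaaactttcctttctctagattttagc
Uba7: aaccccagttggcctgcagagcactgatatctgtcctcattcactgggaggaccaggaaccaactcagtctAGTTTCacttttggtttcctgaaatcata
Trim25: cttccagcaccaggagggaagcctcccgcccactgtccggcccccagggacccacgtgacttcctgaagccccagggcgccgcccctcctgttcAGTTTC
Ube2l6: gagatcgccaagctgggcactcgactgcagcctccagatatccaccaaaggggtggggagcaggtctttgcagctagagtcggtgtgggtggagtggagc

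In Trim30a the capitals hold a match to each pattern, which overlap. Trim5 has a match to the longer pattern, Uba7 and Trim25 have the shorter one, and Ube2l6 has neither in the bases shown. Over windows of 250 bases before to 50 after a start, the longer pattern was found in 4 of the 9 windows of the 7 interferon members with an entry, 3 genes in all (Trim5, Trim12a and Trim30a), and in 3.44% of the 32851 windows of all genes. The windows of Trim5 and Trim12a share a run of 241 of 300 bases, so these 2 are not separate examples. GAAACT was found in 6 of the 9 windows, from 5 genes (Trim5 and Trim12a among them), and in 15.8% of all windows. Because GAAACT was added after the windows had been read, these shares do not test an excess. Among the tested ubiquitin genes outside the interferon list, 3.85% of windows held the longer pattern and 9.62% the shorter. A match describes letters in a window and is not a measured binding site. Trim5 and Trim12a are close paralogs, and probes to them may not be told apart.

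The rest of the pathway, from a list of 184 other genes of ubiquitin, SUMO and NEDD8 conjugation, had 86 genes on the array and 46 tested. Of these 25 were higher and 21 lower in Cx43 KO, with a median of 0.04, and 0 passed the limma test. At an unadjusted p under 0.05 there were 3, or 6.52%, against the background of 7.5%. That count was 6 without WT 4 (13%, against 9.44% of all tested), 1 without Cx43 KO 1 (2.17% against 6.52%) and 5 without Cx43 KO 4 (10.9% against 12%). It was 1 without lot batch 1 (2.17% against 5.35%), 1 without lot batch 2 (1.75% against 4.8%) and 7 without lot batch 4 (15.2% against 15.3%). With the replicate block it was 1 (2.17% against 5.56%).

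Keap1, the cullin adaptor that targets the oxidative stress factor Nrf2, had the largest difference of that list. Its ratio was -0.54, -0.63, -0.48 and -0.18 on WT 1 to 4, against 0.06, 0.06, 0.48 and 0.26 on Cx43 KO 1 to 4. The groups did not overlap, and Cx43 KO was higher in all 4 lot batches. The difference was 0.67 (SE 0.18, limma adjusted p = 0.471). Marchf6, a membrane ligase of endoplasmic reticulum-associated degradation, was at 0.54, 0.85, 0.31 and 0.53 on WT 1 to 4, against 0.05, 0.04, 0.16 and 0.21 on Cx43 KO 1 to 4. Here every Cx43 KO array was below every WT array, with a difference of -0.44 (SE 0.17, limma adjusted p = 0.655).

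The SUMO protease Senp3 differed by 0.51 (SE 0.22, limma adjusted p = 0.658) and by 0.79 without lot batch 4. Mdm2, the ligase that restrains p53, differed by 0.36 (SE 0.19, limma adjusted p = 0.700), and by 0.20 with quantile and 0.22 with scale normalization, and was higher in all 4 lot batches. Vhl, the substrate receptor that Cul2 uses for hypoxia-inducible factors, differed by -0.50 (SE 0.25, limma adjusted p = 0.696) and by -0.31 without WT 1. Cand1, which exchanges the receptors on cullins, differed by -0.37 (SE 0.23, limma adjusted p = 0.753) and by -0.19 without WT 2.

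Among the 59 members that could not be tested, ratios were seen on WT 1 and 4 and on Cx43 KO 3 and 4 more than on the other arrays. The E4 enzyme Ube4b, which lengthens ubiquitin chains, was above the pool on all 5 arrays that measured it, at 0.74 to 1.00. Rnf43, a membrane ligase that removes Wnt receptors, was below the pool on all 6 arrays that measured it, at -0.49 and -0.24 in WT and -0.73, -0.92, -1.37 and -0.80 in Cx43 KO. Both were named after their values were seen, and neither has enough WT values for the test used here.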

How the data were processed

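RNA of 8 astrocyte samples, 4 per genotype, was measured on 2-colour arrays against a common pool. The values deposited by the authors are signed log ratios, read here as log2; what base, dyes, scanner and normalization were used is not given in the sources used here. Exact 0 was read as missing. Before centring, array medians lay between 0.09 and 0.32, and each array was centred on its median. Features with a single symbol in the platform annotation were averaged per gene, and the Entrez numbers of all 131 ubiquitin genes were found in the RefSeq gene table of GRCm38.p6, with 0 symbols to update. The arrays give no counts or intensities, and their number limits the precision.

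Genes and unnamed features with at least 3 ratios per genotype (3505) were fitted with limma 3.58.1 (R 4.3.3; lmFit and eBayes), two-sided and with no block, and p-values were adjusted over all of them (Benjamini-Hochberg, threshold 0.05). Groups are those of the array titles. Lot batches in the labels pair same-numbered arrays; the deviations of paired arrays from their genotype means correlated across all tested genes at -0.17, 0.20, -0.13 and -0.17. The alternatives tried were other centring, feature choice, filters, array weights, the block, and leaving out arrays or lot batches. The fit was tested on simulated data.

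The members, lists and named genes were chosen with earlier results of these data known. The named genes are the 8 with the smallest p in each direction, the highest and lowest member of each class, all E1 enzymes, members of the interferon and neuron lists, and 3 other pathway genes in each direction; others are said to be named after their values were seen. Lists of cell cycle genes and of muscle genes of the ubiquitin system had 0 genes on the array. Protein sequences were not used here.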

Additional observations from a re-analysis of the deposited data

Results flagged for a closer look

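In groups of 4 arrays, a value was singled out when its gap to the nearest array was a larger share of the range of its group than Dixon's 95% critical value, which chance gives in about 1 in 20 groups. Of 75 groups of named genes, 5 held such a value, and 4 of these were on Cx43 KO 4. Trim30a was at 2.96 there, with the other Cx43 KO arrays at 0.82 to 1.10. Trim25 was at 1.54, with the others at -0.02 to 0.12. Ube2l6 was at 1.01, with the others at -1.35 to -0.98. The F-box gene Fbxo44 was at -1.38, below the others at -0.76 to -0.66. Rnf114 was at -0.15 on WT 4, with the other WT arrays at -0.50 to -0.45. Over all 72 tested members, 7 of 132 groups held such a value, 4 of them on Cx43 KO 4. That share is near the 1 in 20 given above, and the share over all genes and features tested was not counted. Of all genes and features tested, 20.1% had their highest value on Cx43 KO 4 and 22.3% their lowest.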

How the results depend on the processing

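The count of ubiquitin genes past an adjusted p of 0.05 was 0 under all 8 alternatives that kept the arrays and all 12 that left out arrays or lot batches. The 8 at an unadjusted p under 0.05 became 5 without centring (6.94%, against 6.79% of all tested), 4 with quantile (5.56% against 6.13%) or scale normalization (5.56% against 6.82%), 5 of 61 with ratios on all 8 arrays (8.2% against 7.67%), and 1 to 10 when arrays or lot batches were left out. With the replicate block, which pairs the arrays of a lot batch, they became 3 (4.17% against 5.56%), and in the other pathway list 3 became 1 (1 to 7 when arrays or lot batches were left out). The block ended the WT call of Nedd4l (-0.35, limma adjusted p = 0.077) and changed no other call of a named gene; without centring the WT calls of Nedd4l (-0.13) and Fbxo44 (-0.36) were lost. Groups that did not overlap, 4 in the reported setting, were 1 with ratios on all arrays (1.64%, against 4.2% of all tested) and 5 to 23 with arrays left out. Signs turned for Uba3 (-0.060 with quantile and -0.064 with scale normalization), Uchl1 (0.044, 0.051 and, with array weights, 0.12), Uba6 (-0.083), Uba7 (-0.33) and Ube2l6 (-0.29) with array weights, Uba7 (-0.20) with the feature of most ratios, and the WT levels of Cul2 (0.039) and Usp6nl (0.21) without centring. When arrays or lot batches were left out, differences ran from -0.36 to 0.0017 for Fbxl12, -0.14 to 0.40 for Uba3, -0.12 to 0.45 for Uba6, -0.40 to 0.37 for Uba7, -0.050 to 0.89 for Trim30a, -0.018 to 0.56 for Trim25, -0.048 to 0.39 for Trim5, -0.45 to 0.38 for Ube2l6, -0.32 to 0.26 for Uchl1 and -0.046 to 0.25 for Trim46, and WT levels from -0.33 to 0.030 for Cul2 and -0.16 to 0.13 for Usp6nl. The cause of these turns was not tested. Of 991 values of 50 named results under alternatives, 942 kept direction and call, 9 lost the call and 40 turned. No difference between genotypes was called in the reported setting, so those results had no call to lose. WT means also do not change when only a Cx43 KO array is left out. The count of 942 is therefore not a measure of how stable the results are. Array weights were lowest for Cx43 KO 4 (0.32, against 0.74 to 1.74).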
